A study of Mus musculus with 12 samples.

Results

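Immediate early genes are switched on by serum, growth factors, cytokines and stress without new protein synthesis, and their mRNAs are usually short-lived. Krüppel-like factors are transcription factors that bind GC-rich and CACCC DNA through zinc fingers, and several of them are induced in the same way. Their levels in cultured marrow cells vary with the time since the last stimulus, and Fos-family and Krüppel-like factors also take part in bone and myeloid cell differentiation. The members described here are Fosb, Ier3, Klf4 and Klf6, chosen by gene symbol, 4 of the 658 genes of the table. All 4 were measured in every library.

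The RNA came from wild-type (WT) mouse bone marrow mesenchymal stem cells (BMSCs), the plastic-adherent stromal cells of marrow. There were 6 libraries from cultures with α-asarone, a phenylpropanoid of Acorus oil that the sample labels spell α-Asaronel, and 6 control libraries without it. All 12 cultures were in osteogenic medium with 100 nM dexamethasone, 10 mM β-glycerophosphate, 50 µM ascorbic acid, and their basal medium held serum (15%) and antibiotics (1%), so a glucocorticoid and serum, both of which act on inducible genes, were present in both groups. How much α-asarone was given, for how long, and how long after the last medium change the cells were harvested is not stated in the sources used here. The series title names tendon-bone healing, Dmp1 and PPARG. The labels call the libraries biological replicates and do not say whether they came from separate animals, so the p-values rest on the spread from library to library, which may be technical.

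The 658 genes are part of the transcriptome. Their estimated counts summed to 843595 to 1224256 per library and their TPM (transcripts scaled to a fixed library total and per transcript length) to 5.36% to 5.67% of that total. Stromal genes were abundant: the 4 of 16 stromal markers in the table summed to 3000 to 3385 TPM with α-asarone, against 3462 to 3968 TPM in controls. The lower sum came mainly from Col1a1, with a mean of 1304 TPM with α-asarone against 1852 TPM in controls. Col6a1 was higher with α-asarone, at 724 TPM against 641 TPM. Mmp14, at 359 TPM against 357 TPM, and Timp1, at 786 TPM against 809 TPM, differed little. The common surface markers of these cells, such as Thy1 and Eng, were not analysed here. Myeloid genes were abundant as well, as given below.

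Upstream sequences of the members are shown because the genes are known for their inducible promoters and because the pairs moved in opposite directions. They are the 250 bases before the RefSeq transcription start, 5′ to 3′ on the strand of the gene (GRCm38.p6). Capitals mark GC boxes (GGGCGG, the kind of site bound by Sp1 and Krüppel-like factors) and the CRE core (TGACG, bound by the CREB and ATF families), on either strand.
Fosb, chr7:19310046-19310295, minus strand: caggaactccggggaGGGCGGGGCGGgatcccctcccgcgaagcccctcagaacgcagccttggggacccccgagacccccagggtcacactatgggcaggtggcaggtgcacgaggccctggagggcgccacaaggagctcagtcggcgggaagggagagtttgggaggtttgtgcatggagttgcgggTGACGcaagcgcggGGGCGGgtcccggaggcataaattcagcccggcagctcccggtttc
Ier3, chr17:35821463-35821712, plus strand: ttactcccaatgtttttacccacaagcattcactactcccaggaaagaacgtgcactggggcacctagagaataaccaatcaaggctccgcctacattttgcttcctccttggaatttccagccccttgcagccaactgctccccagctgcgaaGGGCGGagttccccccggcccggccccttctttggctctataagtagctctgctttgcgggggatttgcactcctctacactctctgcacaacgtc
Klf4, chr4:55532476-55532725, minus strand: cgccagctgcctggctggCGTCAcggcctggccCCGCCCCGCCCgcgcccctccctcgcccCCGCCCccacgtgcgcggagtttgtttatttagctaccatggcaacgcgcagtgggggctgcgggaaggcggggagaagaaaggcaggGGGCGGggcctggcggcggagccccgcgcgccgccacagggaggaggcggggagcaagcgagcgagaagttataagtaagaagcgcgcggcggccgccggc
Klf6, chr13:5861239-5861488, plus strand: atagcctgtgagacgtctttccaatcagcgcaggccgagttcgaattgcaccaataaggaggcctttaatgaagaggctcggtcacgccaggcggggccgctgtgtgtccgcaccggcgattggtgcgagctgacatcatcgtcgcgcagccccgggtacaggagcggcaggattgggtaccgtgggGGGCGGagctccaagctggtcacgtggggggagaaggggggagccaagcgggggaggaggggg

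All 4 windows held a GC box, a sequence found in 32.7% of 32851 RefSeq windows of the same length. Fosb had 3 matches, Ier3 had 1, Klf4 had 4 and Klf6 had 1, and the first 2 in Fosb and the first 2 in Klf4 each share a base. The CRE core matched once in Fosb, 60 to 56 bases before the start, and once in Klf4, 232 to 228 bases before it, against 17.8% of all windows. No member held TATAAA (12.4% of all windows), the AP-1 site TGACTCA (4.46%), the CACCC box CCACCC (28.1%) or the CArG box, the core of the serum response element (1.47%), in these letters. The windows of Fosb, Klf4 and Klf6 were GC-rich, at 68.8%, 74.0% and 64.8%, against a median of 52.4% over all windows. That of Ier3, at 54.4%, was near the median. The part of these sites in the direction of the changes was not tested.

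The members lay at different levels in one fixed order. On the TPM scale, which is per transcript length, Klf6 was highest, followed by Klf4, Ier3 and Fosb, and this order held within each of the 12 libraries. Klf6 was 2.59 to 3.23 times Klf4, Klf4 was 1.28 to 2.06 times Ier3, and Ier3 was 10.98 to 32.3 times Fosb in the same library. The TPM ranges of neighbours in this order did not overlap over the 12 libraries. The closest were Klf4, at 39.4 TPM or more, and Ier3, at 31.8 TPM or less. By mean TPM over all libraries Klf6 ranked 64 of 658 genes, Klf4 ranked 202, Ier3 ranked 292 and Fosb ranked 500. All of their deposited counts were whole numbers, and none of the genes overlaps another gene in GENCODE M21.

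With α-asarone the immediate early genes Fosb and Ier3 rose and the Krüppel-like factor genes Klf4 and Klf6 fell. Fosb changed most, at 1.66-fold, from few reads. Ier3 was 16.8% higher, Klf4 was 19.1% lower and Klf6 was 7.51% lower. All 4 passed edgeR's quasi-likelihood test at an adjusted p under 0.05, against 30.3% of the 512 genes tested. Rises made up 12.9% and falls 17.4% of the genes tested. The members were chosen with earlier results known, so their count is a description. In bulk RNA, fewer cells that express a gene and less of its RNA per cell cannot be told apart.

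**Figure D1:**
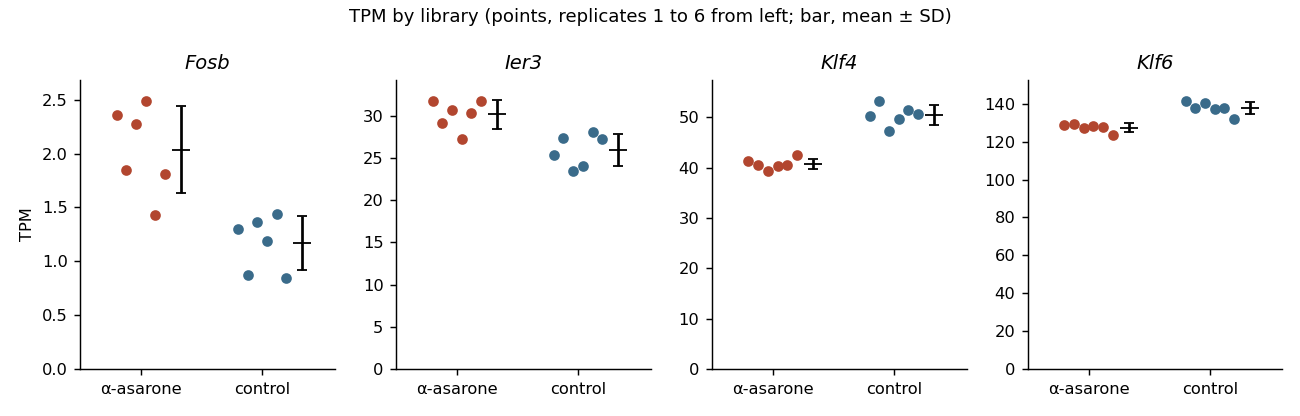
TPM of the members in each library, with α-asarone on the left of each panel and controls on the right. Points are libraries, black bars are means ± SD (n = 6), and each panel has its own axis from 0. The groups are apart for Klf4 and Klf6, with 39.4 to 42.4 TPM against 47.3 to 53.2 TPM for Klf4, and they meet or overlap for Fosb and Ier3.

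Fosb (ENSMUSG00000003545, chromosome 7, 19302696 to 19310051, minus strand, GRCm38) encodes a Fos-family subunit of AP-1, the transcription factor that Fos proteins form with Jun proteins. A truncated product of this gene, ΔFosB, raises bone mass when it is overexpressed in mice. With α-asarone its TPM ran from 1.43 through a median of 2.06 to 2.49, against 0.846 through 1.247 to 1.44 in controls. The ranges met at their edges, where the lowest α-asarone library had 1.434 TPM and the highest control had 1.440 TPM. The means were 2.03 ± 0.404 TPM with α-asarone, against 1.17 ± 0.255 TPM in controls (SD, n = 6 each).

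Fosb did separate the groups in normalised counts, although its raw counts overlapped. It had 38 to 66 counts per library with α-asarone and 22 to 42 in controls. As normalised counts (CPM) these were 47.6 ± 6.18 CPM with α-asarone and 28.6 ± 4.56 CPM in controls (SD, n = 6 each). The scaling used each library's total over the 512 genes tested and its TMM factor. The lowest α-asarone library, at 40.4, lay above the highest control, at 37.7. This is a log2 fold change of 0.73 ± 0.15 (SE), which edgeR called at an adjusted p = 0.000456, and the 95% interval runs from 33.4% to 106% higher. An exact permutation test (2-sided, log2(TPM + 1), all arrangements of the libraries) gave p = 0.00433, where the smallest p possible is 0.00216.

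That the scales differ in overlap goes with the quotient of count and TPM, which reflects the transcript length the authors' quantification gave the gene in each library. Adjusted for library size, this quotient ran from 18.8 to 32.8 counts per TPM for Fosb, a 1.75-fold spread, and 98.0% of the 512 genes tested had a smaller one. The median spread over those genes was 1.04-fold. For Ier3, with a single annotated transcript, it was 9.82 in every library, and it spanned 25.6 to 26.3 for Klf4 and 36.2 to 36.7 for Klf6. GENCODE M21 lists 7 transcripts of Fosb, 6 of them protein-coding. The high values of the quotient, 31.4 to 32.8, occurred in α-asarone replicates 5 and 6 and in control replicates 2, 4 and 6. The other α-asarone libraries had 18.8 to 23.3 and the other controls 20.4 to 20.8, so high and low libraries were found in both groups. Values per transcript were not analysed here, and the part of this spread in the TPM difference was not tested.

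**Figure D2:**
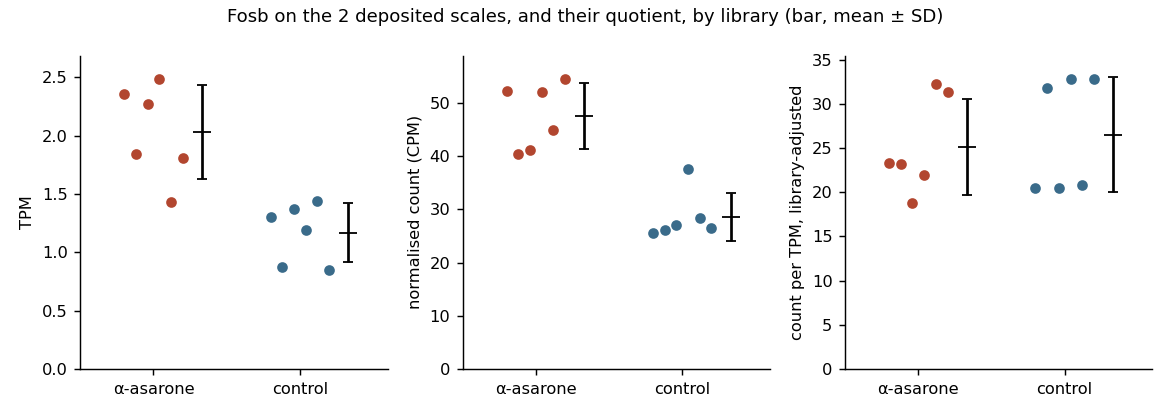
Fosb in each library as TPM (left), as normalised count in CPM (middle) and as the quotient of count and TPM adjusted for library size (right), with α-asarone left of controls. Points are libraries and black bars are means ± SD (n = 6). The TPM ranges meet at 1.434 and 1.440, the normalised counts do not overlap, and the quotient lies at 18.8 to 23.3 or at 31.4 to 32.8, with libraries of both groups in each range.

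The filter on low values, which asks for 6 libraries at 1 TPM or more, was met for Fosb by all 6 α-asarone libraries and by 4 of 6 controls. The group in which it was high was therefore enough to pass it. Without the filter the log2 fold change was 0.73 (edgeR adjusted p = 0.00087). On the log2(TPM + 1) scale, which understates the change of low genes, limma gave 0.48 (adjusted p = 0.00683).

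Ier3 (ENSMUSG00000003541, chromosome 17, 35821684 to 35822923, plus strand), also known as IEX-1, encodes a stress-inducible protein that acts on cell survival and on ERK and NF-κB signalling. With α-asarone its TPM ran from 27.3 through a median of 30.6 to 31.8, against 23.5 through 26.4 to 28.1 in controls. The groups overlapped: α-asarone replicate 4, at 27.3 TPM, lay below control replicates 2 and 5, while the other 5 α-asarone libraries lay above every control. The means were 30.2 ± 1.70 TPM with α-asarone, against 26.0 ± 1.92 TPM in controls (SD, n = 6 each). Counts were 236 to 374 with α-asarone and 214 to 295 in controls. edgeR gave a log2 fold change of 0.22 ± 0.06 (SE) at an adjusted p = 0.00747, and the 95% interval runs from 6.73% to 27.8% higher. By exact permutation p = 0.00649. By adjusted p this was the weakest of the members' calls.

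Klf4 (ENSMUSG00000003032, chromosome 4, 55527143 to 55532466, minus strand) encodes a transcription factor known from reprogramming to pluripotency, from monocyte differentiation and, in vascular smooth muscle, from repression of contractile genes. With α-asarone its TPM ran from 39.4 through a median of 40.5 to 42.4, against 47.3 through 50.4 to 53.2 in controls. Every α-asarone library lay below every control. The means were 40.8 ± 1.02 TPM with α-asarone, against 50.4 ± 1.97 TPM in controls (SD, n = 6 each). Scaled for library size, the counts were 1015 ± 28.6 CPM with α-asarone and 1255 ± 39.3 CPM in controls. edgeR gave a log2 fold change of −0.31 ± 0.03 (SE) at an adjusted p = 5.65e-09, and the 95% interval of the change runs from −22.7% to −15.3%. By exact permutation p = 0.00216, the smallest it can give.

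Klf6 (ENSMUSG00000000078, chromosome 13, 5861482 to 5870394, plus strand) encodes a broadly expressed zinc finger factor that was first described by its binding to GC-rich core promoter elements and is known as a tumour suppressor. With α-asarone its TPM ran from 123 through a median of 128 to 129.5, against 132 through 138 to 141 in controls. The groups did not overlap, and the gap between them, from 129.5 to 132 TPM, was narrow. The means were 127 ± 2.20 TPM with α-asarone, against 138 ± 3.27 TPM in controls (SD, n = 6 each). Counts were 4099 to 5656 with α-asarone and 4009 to 5693 in controls, so the ranges of the raw counts overlapped, with means of 4636 with α-asarone and 5119 in controls. edgeR gave a log2 fold change of −0.11 ± 0.02 (SE) at an adjusted p = 0.000578, and the 95% interval of the change runs from −10.6% to −4.28%. By exact permutation p = 0.00216. The size of this fall depended on the scaling: when libraries were scaled by table totals alone it was −0.07 (edgeR adjusted p = 0.0377). That setting raised the median log2 fold change of all genes to 0.04, against 0.00069 with TMM factors, and 67.2% of its calls were rises, against 42.6%.

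Without overlap between the groups in TPM were 2 of the 4 members, Klf4 and Klf6, against 14.3% of the genes tested. In normalised counts these were 3 of 4, Fosb included, against 14.6%. Among the 66 genes called higher, Fosb had the 9th largest log2 fold change and Ier3 the 24th, and the median of these calls was 0.18. Among the 89 called lower, Klf4 had the 30th largest fall and Klf6 the 72nd, with a median of −0.22. Fosb thus stood among the larger rises, and Klf6 among the smaller falls.

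**Figure D3:**
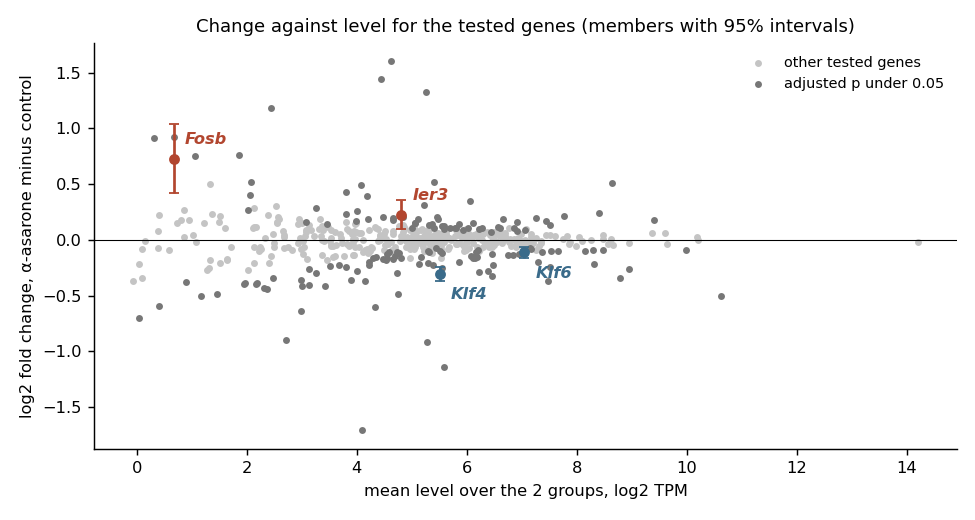
Log2 fold change (α-asarone minus control) against the mean level in log2 TPM for the 512 genes tested. Dark grey points passed an adjusted p under 0.05, light grey points did not, and the members are drawn with 95% confidence intervals. Fosb, at 0.73, lies among the low genes with a wide interval, while Klf6, at −0.11, is the highest of the 4 in level and has a narrow one.

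The spread between libraries was close to that of counting alone for most members. For Fosb with α-asarone the coefficient of variation of the normalised counts was 12.98%, and counting error at its mean of 49.5 counts gives 14.2%. In controls these were 16.0% and 18.1%. For Ier3 they were 5.95% and 5.81% with α-asarone, and 6.44% and 6.22% in controls. For Klf4 they were 2.82% and 3.08% with α-asarone, and 3.13% and 2.74% in controls. Klf6 in controls was the exception, at 2.97% against 1.40% from counting, while with α-asarone it had 1.58% against 1.47%. Depth therefore limits Fosb most, with 38 to 66 counts against 22 to 42.

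Within a library the ratio of one member to another does not depend on how the library was scaled. These 6 ratios are given without a test. The ratio of Ier3 to Klf4 had the clearest gap, with 0.677 to 0.780 in α-asarone libraries against 0.485 to 0.547 in controls. Its means were 0.741 ± 0.0374 with α-asarone and 0.515 ± 0.0243 in controls (SD, n = 6 each), a log2 difference of 0.53. Ier3 to Klf6 was 0.213 to 0.258 with α-asarone against 0.168 to 0.207 in controls, also without overlap. Both of these Ier3 ratios were thus higher in every α-asarone library than in any control.

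Fosb to Klf4 was 0.0354 to 0.0616 with α-asarone against 0.0164 to 0.0290 in controls, with a log2 difference of 1.11, the largest of the 6. Fosb to Klf6 was 0.0112 to 0.0194 with α-asarone against 0.00632 to 0.0104 in controls. All 4 ratios across the pairs were therefore free of overlap between the groups. The ratios inside each pair overlapped. A ratio across the pairs divides a gene that rose by a gene that fell. This contrast is therefore not independent of the directions of the single genes given above. Fosb to Ier3 was 0.0473 to 0.0911 with α-asarone and 0.0310 to 0.0582 in controls. Klf4 to Klf6 was 0.310 to 0.344 with α-asarone and 0.337 to 0.386 in controls, where α-asarone replicate 6, at 0.344, was the one α-asarone library inside the range of controls. The other 5 had 0.310 to 0.320.

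**Figure D4:**
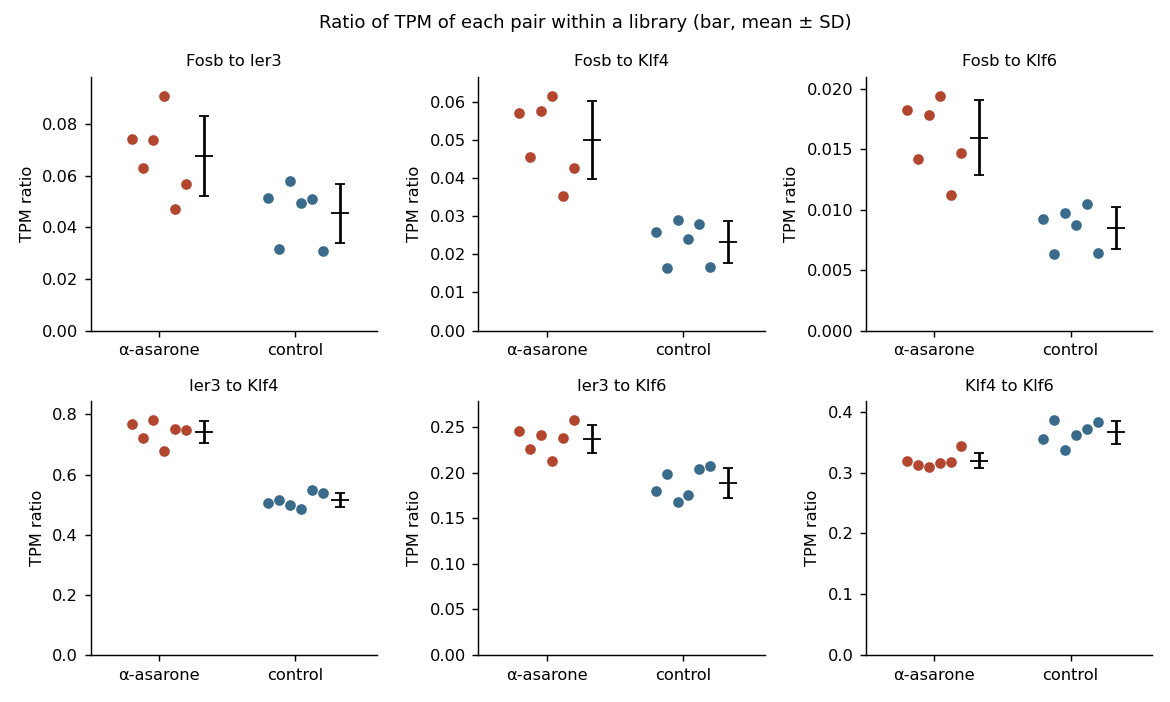
Ratio of the TPM of each pair of members within a library, with α-asarone left of controls, points for libraries and black bars for means ± SD (n = 6). The 4 ratios of an immediate early gene to a Krüppel-like gene do not overlap between the groups, as for Ier3 to Klf4 at 0.677 to 0.780 against 0.485 to 0.547, while Fosb to Ier3 and Klf4 to Klf6 do. This contrast is not independent of the directions of the single genes.

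Few other genes of these families were in the table. Of 69 listed immediate early genes 2 were measured, Fosb and Ier3, and of 20 AP-1 family genes 1, Fosb. The Jun genes, which encode the partners of Fosb, were not analysed here. Of 26 Krüppel-like and Sp factor genes 3 were measured and tested, the members Klf4 and Klf6 among them. All 3 were called lower, against 17.4% of the genes tested, and only 1 of them is not a member. The third was Sp1, which encodes a broadly expressed GC box binding factor. It had 41.5 ± 0.834 TPM with α-asarone, against 45.2 ± 2.26 TPM in controls (SD, n = 6 each), with a log2 fold change of −0.07 ± 0.03 (SE; edgeR adjusted p = 0.028). The median log2 fold change of these 3 genes, which is the value of Klf6 itself, was −0.11, beside 0.00069 over all genes tested. Among the 9 tested genes beyond these 3 that the deposited annotation puts in the C2H2 zinc finger family, a set chosen after seeing the data, 2 rose and 1 fell, with a median of −0.06.

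Upstream of inducible genes, 6 of 48 listed kinase and transcription factor genes of the MAPK, SRF and CREB routes were tested, of which 1 rose and 1 fell, with a median log2 fold change of −0.03. Map2k7, which encodes a kinase that activates JNK, had 43.8 ± 2.67 TPM with α-asarone, against 40.9 ± 2.28 TPM in controls (log2 fold change 0.11, edgeR adjusted p = 0.00987). Braf, which encodes a RAF kinase of the ERK route, had 23.7 ± 1.23 TPM with α-asarone, against 26.7 ± 0.861 TPM in controls (log2 fold change −0.17, edgeR adjusted p = 5.07e-05). Araf, another RAF kinase gene, did not pass, at 79.9 ± 4.68 TPM with α-asarone against 77.1 ± 5.94 TPM in controls, nor did Rps6ka1, the gene of an ERK-activated kinase, at 61.2 ± 2.66 TPM against 64.5 ± 2.83 TPM in controls. RNA levels of kinases say nothing of their activity. Of 15 glucocorticoid response genes Angptl4 was tested, and it rose to 32.0 ± 1.93 TPM with α-asarone against 11.8 ± 0.963 TPM in controls. Angptl4 is also among the adipocyte markers counted below. No gene of the heat shock and stress list was analysed here.

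Genes of other cell types moved between the groups as well, and their part in the members' changes was not tested. Klf4, Ier3 and Fosb are also expressed by monocytes and macrophages. The 4 of 20 myeloid markers in the table summed to 967 to 1123 TPM with α-asarone, against 834 to 923 TPM in controls, with 2 higher, 1 lower and Cfp the most abundant at 469 ± 45.6 TPM with α-asarone against 332 ± 23.1 TPM in controls. Most of the higher myeloid sum lay in Cfp, and the marker that fell was Itgb2, at 273 TPM with α-asarone against 293 TPM in controls. None of the 4 was at 0. Of the stromal markers summed above, 1 rose and 1 fell, and Col1a1, the most abundant, was at 1304 ± 78.8 TPM with α-asarone against 1852 ± 141 TPM in controls. The smooth muscle marker Cnn1, the 1 of 8 listed that was in the table, was at 6.82 to 9.97 TPM with α-asarone. In controls it was at 21.8 to 30.3 TPM, and a link between Klf4 and Cnn1 was not tested. The osteoclast marker Acp5 was at 25.1 to 38.4 TPM with α-asarone, against 57.9 to 78.4 TPM in controls.

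The 5 of 12 adipocyte markers summed to 423 to 538 TPM with α-asarone, against 361 to 417 TPM in controls, with 4 higher, none lower and Cd36 the most abundant. The 3 of 14 osteoblast and osteocyte genes summed to 1211 to 1429 TPM with α-asarone, against 1722 to 2105 TPM in controls, nearly all of it Col1a1, and Sost was listed at 0 in every library. Lymphoid genes were at or near 0, with Cd3g and Vpreb3 listed at 0 in every library and Cd79a at 0.099 TPM at most. The endothelial genes Vwf and Esam summed to 0.684 to 1.78 TPM with α-asarone, against 1.17 to 2.11 TPM in controls.

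For each member the 3 other tested genes with the closest pattern were found by the root mean square difference of log2(TPM + 1) over the 12 libraries, each gene centred on its own mean. These values are descriptions. The 12 libraries share the treatment groups, so a close pattern includes the difference between the groups. For Klf4 the closest were Ltbp1, which encodes a TGF-β binding protein, at 0.0421, Fkbp10, a collagen chaperone gene, at 0.0476, and S100a4 at 0.0517, against a median of 0.18 over all genes. For Klf6 they included the chaperone gene Calr at 0.0401 and Rin2 at 0.0402, against a median of 0.12. For Ier3 they were Impdh1 at 0.0688, Unc119 at 0.0752 and the lysyl oxidase family gene Loxl3 at 0.0848, against a median of 0.16. For Fosb they were Lipe, Mmd and Col18a1, at 0.14 to 0.16 against a median of 0.31, so its nearest genes lay farther off than those of the other members. Among the members themselves Klf4 and Klf6 were the closest, at 0.11, and Fosb and Klf4 the farthest apart, at 0.43.

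On the chromosome, the nearest gene of the table to Fosb was Ercc1, 34727 bases away, and the nearest to Ier3 was Tubb5, 10998 bases away. Neither passed, with log2 fold changes of −0.02 for Ercc1 (edgeR adjusted p = 0.868) and −0.03 for Tubb5 (edgeR adjusted p = 0.265). Farther out, 5 of the 11 tested table genes within 500000 bases of these members passed, beside 30.3% of all genes tested. Near Fosb these were 4 of 8, with Relb (log2 fold change 0.23), Tomm40 (0.20) and Clptm1 (0.07) higher and Apoc2 (−0.91) lower. Near Ier3 it was 1 of 3, Ddr1, which was lower (−0.49). No gene of the table lay within 500000 bases of Klf4 or Klf6. This look at neighbours was chosen after seeing the data.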

How the data were processed

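Poly(A) RNA of the 12 libraries was sequenced. RNA integrity numbers were above 7.0 and inserts averaged 300 bp, per the labels' protocols. The authors deposited TPM values beside estimated counts, 1 of each for a gene in a library, per the file headers. Between 7.45% and 9.57% of a library's estimated counts as deposited are not whole. The submitters' processing notes name GRCm38 and mm10. The sources used here do not give the aligner, the quantifier or the use of strand in counting.

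Columns were matched to samples by the names in the labels. Estimated counts were rounded and tested with edgeR 4.0.16 (glmQLFit and glmQLFTest, R 4.3.3) with TMM factors and no covariate. The test covered the 512 of 658 genes that reached 1 TPM in 6 or more libraries, with Benjamini-Hochberg adjustment over all of them and a threshold of 0.05. Fold changes are α-asarone over control. The count test was checked on simulated data. Permutation tests of log2(TPM + 1) were exact and 2-sided, over all arrangements of 6 against 6 libraries. Counting intervals do not cover errors of amplification. Replicate pairs within a group had chi-square values per degree of freedom from 2.24 to 11.2, above sampling noise, and each library entered as its own sample. All 658 identifiers matched GENCODE M21 (GRCm38). Promoters are RefSeq's, GRCm38.p6, and all 4 members matched 1 each. Protein sequences were not used here.

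The members and the 14 gene lists, 6 of pathways and 8 of cell types, were chosen with earlier results of these data known. Named are the members, for each pathway list up to 4 called genes and up to 2 tested genes that did not pass, the most abundant marker of a cell type, and the 3 genes closest in pattern to each member. A gene that this rule names is not reported here. Further markers, Thy1 and Eng, the chromosomal neighbours and the C2H2 set fall outside this rule. Alternatives were other filters, scalings, pseudocounts, tests and tools (DESeq2 1.42.0, limma 3.58.1), Apoe left out, a replicate block and each library left out. They are reported below.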

Additional observations from a re-analysis of the deposited data

Results flagged for a closer look

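In 30 groups of 6 values, the highest or lowest was compared with its nearest neighbour. In 4 the gap exceeded Dixon's critical value at its 95% level, where chance gives about 1.5. The normalised count of Fosb was 37.7 CPM in control replicate 4, against 25.6 to 28.4 CPM in the remaining controls. Its TPM there, 1.19, was inside the range of the controls, and without that library the log2 fold change was 0.83 (edgeR adjusted p = 0.000121). The lowest Klf6 value, 123 TPM, came from α-asarone replicate 6, against 127 to 129.5 TPM in the rest of that group, and without that library the log2 fold change was −0.11 (edgeR adjusted p = 0.00242). In the same library the ratio of Klf4 to Klf6 was 0.344, against 0.310 to 0.320 in the remaining 5, and the log2 difference between the groups was −0.22 without it against −0.20 with it. These 2 values share the Klf6 measurement and are not independent. The table total of control replicate 2 was 843595 estimated counts, against 1068547 to 1173845 in the remaining controls.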

How the results depend on the processing

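All 4 members kept their direction and an adjusted p under 0.05 in every alternative that gave them a value, 103 values in all. Fosb had none with a TPM minimum of 5, which it does not reach. Genes changed numbered 155, 105 to 189 over 14 other settings and 138 to 152 without 1 of the libraries. Leaving out each library gave log2 fold changes of 0.69 to 0.83 for Fosb, 0.20 to 0.25 for Ier3, −0.32 to −0.29 for Klf4 and −0.13 to −0.10 for Klf6. Fosb was 0.48 with limma on log2(TPM + 1) and 0.19 on log2(TPM + 5), since a pseudocount near or above its TPM shrinks the change. Ier3 was closest to the threshold, at an adjusted p of 0.0422 with the exact Mann-Whitney test. Klf6 with table totals was −0.07 (edgeR adjusted p = 0.0377). Same-numbered libraries had correlations from −0.057 to 0.14 over 512 genes, and 2 of 6 were closest to their own number. With the replicate block 168 genes changed, and the log2 fold changes were 0.74, 0.22, −0.31 and −0.11 for Fosb, Ier3, Klf4 and Klf6 in that order. The ratios between members kept their direction with each library left out and with counts in place of TPM, settings chosen after seeing the data. Depth limits Fosb, with a mean of 40 counts and an SE of 0.15, against 4878 counts and 0.02 for Klf6.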
